A study of Mus musculus with 2 samples.

Results

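Isl1 peaks were examined at 10 genes of the Notch pathway: the receptors Notch1 and Notch2, the ligands Jag1, Jag2, Dll1 and Dll4, the nuclear factors Rbpj and Maml1, and the target genes Hey1 and Hey2. A peak was taken as belonging to one of them when the deposited list of Isl1 binding sites gave that gene symbol. Of the 10 genes, 8 had at least 1 peak, and together they held 42 of the 48295 peaks of the list, which named 12972 genes in all.

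The list came from ChIP-Seq, in which DNA bound by a protein is precipitated with an antibody and sequenced, here with an antibody against Isl1, a LIM homeodomain transcription factor of the progenitors that build the second heart field. The chromatin was taken from the cardiogenic mesoderm and heart region of C57BL/6 mouse embryos between E8.25 and E9, pooled from about 60 to 80 embryos, and the same material without antibody served as Input. No genetic modification was named in the labels of either sample. The list gave the position of every peak, the closest transcription start site (TSS) and the distance to it, but no height, p-value or read number, and no file of the Input was analysed here. With 1 list from pooled embryos the values below have no replicate check, the number of reads behind a peak is unknown, and whether the list already joins replicates is unclear: the methods describe taking the sites common to replicate experiments, without saying whether this list is the outcome. Because the list rests on dissected tissue, the cell types behind a peak cannot be told apart either.

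Notch receptors are cleaved after they meet a Jagged or Delta-like ligand on a neighboring cell, and the freed intracellular domain enters the nucleus. There it joins the DNA-binding protein Rbpj and a coactivator of the Mastermind-like family, Maml1 among them, and switches on targets such as the bHLH repressors Hey1 and Hey2. In the heart the pathway is known for patterning the atrioventricular canal, for endocardial to mesenchymal transition and trabeculation, and for outflow tract development, and JAG1 mutations cause Alagille syndrome in humans.

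The sequences under the peaks fell into a small number of kinds, and a few examples are shown because the kind of sequence went along with the distance from the TSS. All are from the forward strand of mm9 and span at most the 200 bp around the midpoint of the peak, except the Jag2 sequence, which covers the 209 bases next to the annotated gene start on its upstream side, within the peak. In the first group, capitals mark the longest uninterrupted run of purines (A or G) or of pyrimidines (C or T), and below a peak is said to hold a run where this reaches 25 bases. These were a peak 26.3 kb upstream of Notch2 (chr3:97791038-97791237), one 1.16 kb upstream of Dll4 (chr2:119150266-119150465) and one 102.3 kb upstream of Rbpj (chr5:53844593-53844792).
Notch2 upstream peak: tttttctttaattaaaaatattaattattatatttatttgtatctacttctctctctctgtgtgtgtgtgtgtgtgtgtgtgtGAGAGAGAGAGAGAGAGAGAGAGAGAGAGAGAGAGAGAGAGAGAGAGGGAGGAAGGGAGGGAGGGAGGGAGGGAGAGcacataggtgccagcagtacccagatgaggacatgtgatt
Dll4 upstream peak: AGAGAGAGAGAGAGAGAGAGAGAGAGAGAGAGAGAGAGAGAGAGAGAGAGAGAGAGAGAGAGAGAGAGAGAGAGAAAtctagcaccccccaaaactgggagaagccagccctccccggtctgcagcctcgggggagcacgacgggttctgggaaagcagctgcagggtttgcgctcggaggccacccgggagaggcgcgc
Rbpj upstream peak: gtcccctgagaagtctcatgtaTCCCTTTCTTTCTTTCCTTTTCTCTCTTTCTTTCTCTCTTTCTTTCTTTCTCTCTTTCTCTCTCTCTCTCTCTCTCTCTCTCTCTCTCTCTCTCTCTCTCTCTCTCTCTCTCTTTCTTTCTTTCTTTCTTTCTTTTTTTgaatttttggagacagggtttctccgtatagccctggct

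The runs measured 77, 77 and 139 bases in these 3 sequences, in the order shown, and each is built largely from short repeats such as CT or GA. A second kind lay close to a TSS, was rich in GC and held many CG dinucleotides. Capitals mark CG in the Jag2 sequence (chr12:114167707-114167915) and in the Rbpj sequence (chr5:53982142-53982341).
Jag2 TSS peak: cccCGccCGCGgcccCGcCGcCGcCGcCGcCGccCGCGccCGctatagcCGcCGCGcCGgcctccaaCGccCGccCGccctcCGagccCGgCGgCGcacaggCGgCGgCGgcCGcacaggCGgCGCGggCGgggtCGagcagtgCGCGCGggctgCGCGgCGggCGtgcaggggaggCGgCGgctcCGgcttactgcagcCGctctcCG
Rbpj intronic peak near the TSS: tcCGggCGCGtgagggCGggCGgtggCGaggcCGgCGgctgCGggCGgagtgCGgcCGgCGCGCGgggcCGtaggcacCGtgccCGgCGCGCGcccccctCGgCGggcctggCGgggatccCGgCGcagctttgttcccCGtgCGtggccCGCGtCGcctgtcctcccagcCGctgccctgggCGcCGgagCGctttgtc

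These sequences held 44 and 35 CG dinucleotides. A single peak belonged to neither kind. It lay in an intron of Jag1, 3.16 kb downstream of the TSS (chr2:136938999-136939198), and capitals mark a CA repeat of 40 units in it.
Jag1 intronic peak: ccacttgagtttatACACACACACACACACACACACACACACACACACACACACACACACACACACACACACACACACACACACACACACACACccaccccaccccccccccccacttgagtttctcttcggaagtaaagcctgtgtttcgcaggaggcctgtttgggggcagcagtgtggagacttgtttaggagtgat

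Peaks were unevenly spread over the 10 genes. Jag1 held 15, Rbpj 12 and Hey2 7, so these 3 genes together carried most of the peaks, whereas Notch2, Jag2 and Hey1 held 2 each, Dll4 and Maml1 held 1 each, and Notch1 and Dll1 held none. Having a peak was common in this list: among 21027 protein-coding genes, 50.6% had at least 1. Having as many as Jag1 was not, since 3.4% of the 10644 protein-coding genes with a peak held 15 or more, and 5.32% held at least the 12 of Rbpj. The median bound gene had 2 peaks and 4414 genes (41.5%) had a single one.

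**Figure D1:**
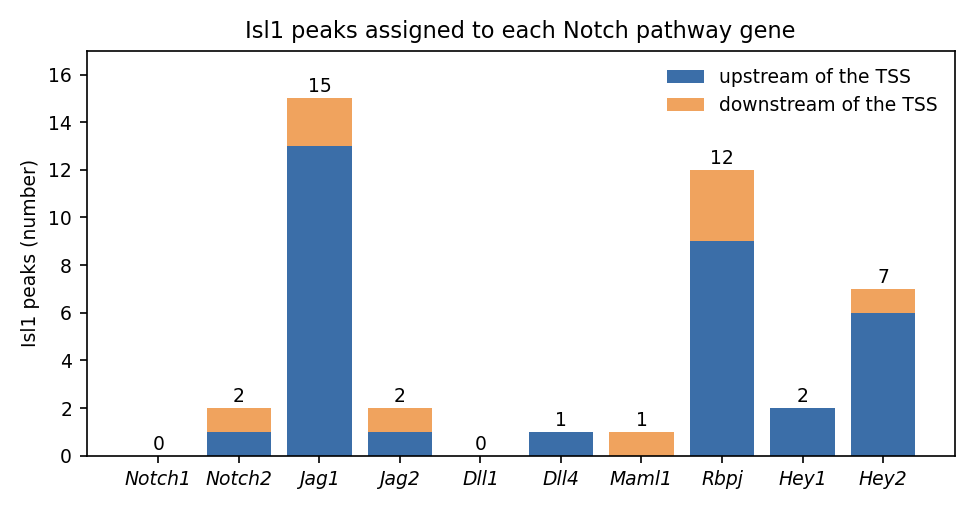
Number of Isl1 peaks (vertical axis) listed for each of the 10 Notch pathway genes (horizontal axis), split into peaks upstream and downstream of the TSS; the number above each bar is the total. Jag1 (15), Rbpj (12) and Hey2 (7) stand above the other genes, and Notch1 and Dll1 have none.

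Among the receptors, Notch1, the receptor with broad roles in endothelium and endocardium, had no peak, and none overlapped its gene body (chr2:26313423-26372183). The closest peak of the list, at chr2:26456400-26457012, lay 84.5 kb from its TSS and was listed for Agpat2. Notch2, the receptor that pairs with Jag1 in many tissues, had 2 peaks. One lay 26.3 kb upstream in intergenic sequence (chr3:97790974-97791301, 327 bp wide, run of 77 purines), and the other 49.1 kb downstream in an intron (chr3:97866350-97866706, 356 bp wide, run of 33 purines). A further peak over the Notch2 gene body was listed for the neighboring gene Adam30. It lay 127.5 kb from the Notch2 TSS (chr3:97944646-97945350, 704 bp wide, run of 172 bases), so the number of peaks over the gene body and the number listed for the gene are not the same quantity.

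The ligands differed widely. Dll1, a Delta-like ligand known from somite formation, had no peak, and the closest peak in the list was 72.4 kb from its TSS (chr17:15585029-15585619) and listed for Psmb1. Dll4, the ligand of arterial endothelium and early endocardium, had 1 peak, 1.16 kb upstream of the TSS (chr2:119150118-119150612, 494 bp wide), which covered an exon of the noncoding transcript Gm14207. Jag2 had 2 peaks, one 59 bp upstream (chr12:114167466-114168065, 599 bp wide) and one 734 bp downstream of the TSS (chr12:114166738-114167207, 469 bp wide). They were 259 bp apart, both covered exons, and their GC content was 86.5% and 82.0%. All peaks of Dll4 and Jag2 thus lay within 1.16 kb of the TSS, whereas Jag1 had 1 of its 15 peaks within 10 kb.

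Jag1, a ligand of endocardium, outflow tract and vascular smooth muscle, had the largest number of peaks, and they were spread over 626.9 kb. The number depends on which start sites are counted: with those of any annotated gene, noncoding ones included, 4 of the peaks were closest to Jag1. The closest was the intronic CA-repeat peak 3.16 kb downstream (chr2:136938772-136939424, 652 bp wide). The other downstream peak was the farthest on that side, 99.2 kb away, and lay in an intron of the next gene, 2210009G21Rik (chr2:136842763-136843324, 561 bp wide, run of 41 bases). All the other 13 peaks were upstream, from 17.2 kb to 527.7 kb (chr2:137469742-137470183, 441 bp wide). The middle of the 15 distances was 139.5 kb, in a peak 642 bp wide with a run of 116 pyrimidines. The widest peak, 848 bp, lay 310.1 kb upstream (chr2:137251904-137252752) with a run of 133 pyrimidines.

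In order of distance, the upstream peaks of Jag1 began well outside the gene. A pair at 17.2 and 20.2 kb were its narrowest, 299 and 295 bp, with runs of 71 and 72 bases. Peaks at 89.9 and 102.7 kb measured 370 and 401 bp with runs of 64 and 126 bases. Around the middle distance, peaks at 136.6, 139.5 and 147.0 kb lay within 10.4 kb and had runs of 59, 116 and 127 bases. None of these 7 peaks overlapped an annotated gene. The peak at 186.6 kb (315 bp, run of 103) lay over the noncoding transcript Gm14055. Farther out, peaks at 310.1, 326.7 and 343.9 kb had runs of 133, 78 and 162 bases, and single peaks followed at 413.0 kb (653 bp, run of 131) and 527.7 kb (run of 55). Run length therefore showed no steady change with distance along the locus.

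On the upstream side no protein-coding gene is annotated until Btbd3, a BTB domain gene whose TSS lies 1140.1 kb from that of Jag1. Between both start sites the list held 30 peaks, 26.3 per Mb (exact Poisson 95% interval 17.8 to 37.6, counting error only), and all 30 held a run. The midpoint divides them by the closest-TSS rule: 13 on the Jag1 side (22.8 per Mb, interval 12.1 to 39.0) and 17 on the Btbd3 side (29.8 per Mb, interval 17.4 to 47.7). These intervals overlap, and the difference in density between the 2 sides was not tested. Along the Jag1 peaks the gaps between neighbors measured 2.36 to 122.9 kb with a median of 26.7 kb, and 3 of 14 gaps were at most 10 kb. The median gap was 8.64 kb at Rbpj and 23.1 kb at Hey2, and gaps over the whole list were not measured.

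**Figure D2:**
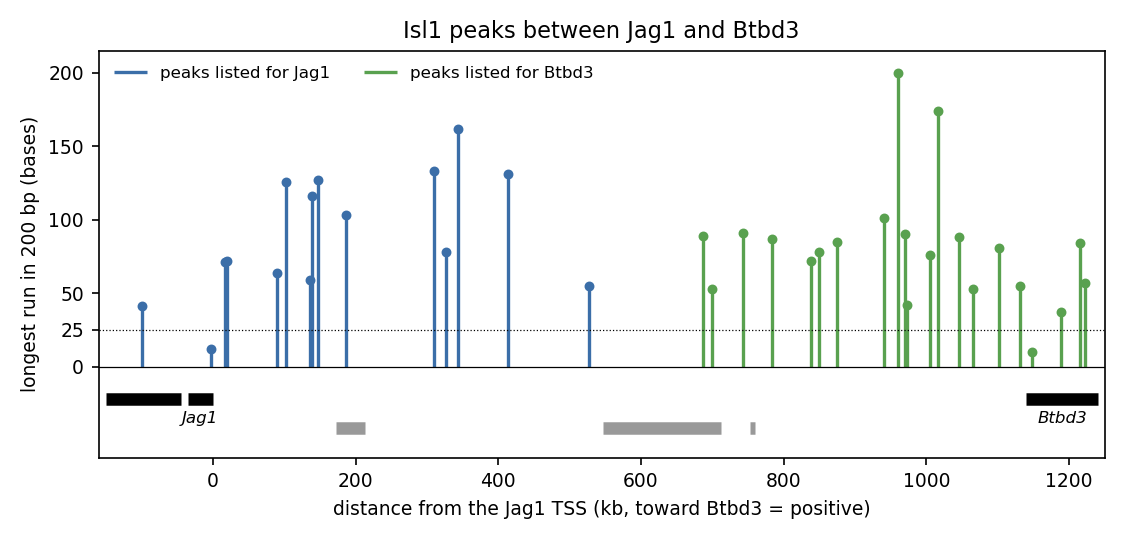
Isl1 peaks around Jag1 and Btbd3, by distance from the Jag1 TSS in kb (horizontal axis), with the longest purine or pyrimidine run within 200 bp of each peak in bases (height); black bars are protein-coding genes and gray bars noncoding transcripts, and the dotted line marks 25 bases. The 13 upstream Jag1 peaks and the 17 Btbd3 peaks between the start sites all stand above the dotted line, while the Jag1 intronic peak is below it with a run of 12.

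Rbpj, the DNA-binding partner of the Notch intracellular domain, had 12 peaks over a shorter stretch. The distances in the list refer to 3 start sites of Rbpj (chr5, positions 53947018, 53981585 and 53981725). Measured so, the closest peak lay 516 bp downstream of a TSS in the first part of the gene (chr5:53981984-53982498, 514 bp wide, GC 82.0%) and had no run. The farthest upstream was at 124.2 kb (chr5:53822581-53823062, 481 bp wide, run of 55 purines), and the farthest downstream at 16.1 kb (chr5:53962875-53963286, 411 bp wide, run of 61). Of the 12 peaks, 5 lay in introns, among them the widest (636 bp, run of 27 purines, 4.89 kb upstream of an internal TSS) and the one with the longest run of all 42. In the latter, 11.8 kb upstream of an internal TSS (chr5:53969459-53970054), the run filled the whole 200 bp and measured 407 bases over the peak. The median distance was 16.6 kb, between a peak at 16.1 kb and one 17.1 kb upstream, and 7 of 11 gaps between neighbors were at most 10 kb (median gap 8.64 kb). Upstream of the gene, 4 peaks lay between 102.3 and 124.2 kb, with runs of 55, 67, 81 and 139 bases, and 3 followed at 39.4, 17.1 and 5.07 kb with runs of 123, 56 and 64 bases. The remaining intronic peak was 5.65 kb downstream of an internal TSS and 625 bp wide, with a run of 71. Rbpj peaks were thus found from far upstream into the 101.7 kb body of the gene (chr5:53947018-54048684). The gene body of Jag1, shorter at 35.2 kb (chr2:136907192-136942380), held a single peak.

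Maml1, the coactivator, had 1 peak 18.4 kb downstream of its TSS in an intron (chr11:50087304-50087647, 343 bp wide, run of 71 purines).

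The target genes differed in number and distance. Hey1 had 2 upstream peaks, a promoter peak at 322 bp (381 bp wide, GC 82.0%, no run) and one at 22.7 kb (chr3:8689530-8690022, 492 bp wide, run of 118 purines). Hey2, which is needed for ventricular identity and septation, had 7 peaks, all intergenic and none within 10 kb. The closest, also its widest and its only downstream peak, lay at 18.1 kb (chr10:30544186-30544892, 706 bp wide, run of 102 pyrimidines). The other 6 were upstream at 81.2, 94.2, 122.8, 141.1, 225.9 and 232.7 kb, with runs of 39 to 154 bases, the farthest of them at chr10:30795076-30795469 (393 bp wide, run of 154 purines) and the middle of the 7 at 122.8 kb (324 bp wide, run of 39 purines). The closest peak of Hey2 was thus nearly as far away as the distal peak of Hey1.

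A peak within 10 kb of the TSS was found for 5 of the 10 genes, Jag1, Jag2, Dll4, Rbpj and Hey1. Of the protein-coding genes with any peak 49.4% had one that close, against 5 of 8 here. Of the 42 peaks, 9 were that close, compared with 15.9% in the list. Within 1 kb lay 4 peaks (9.52%, list 2.58%), 2 at Jag2, 1 at Rbpj and 1 at Hey1. Beyond 100 kb lay 18 peaks (42.9%, list 37.5%), 10 of Jag1, 4 of Rbpj and 4 of Hey2. Beyond 300 kb lay 5 peaks (11.9%, list 15.1%), and all belonged to Jag1. The shares of distant peaks were thus near those of the list.

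**Figure D3:**
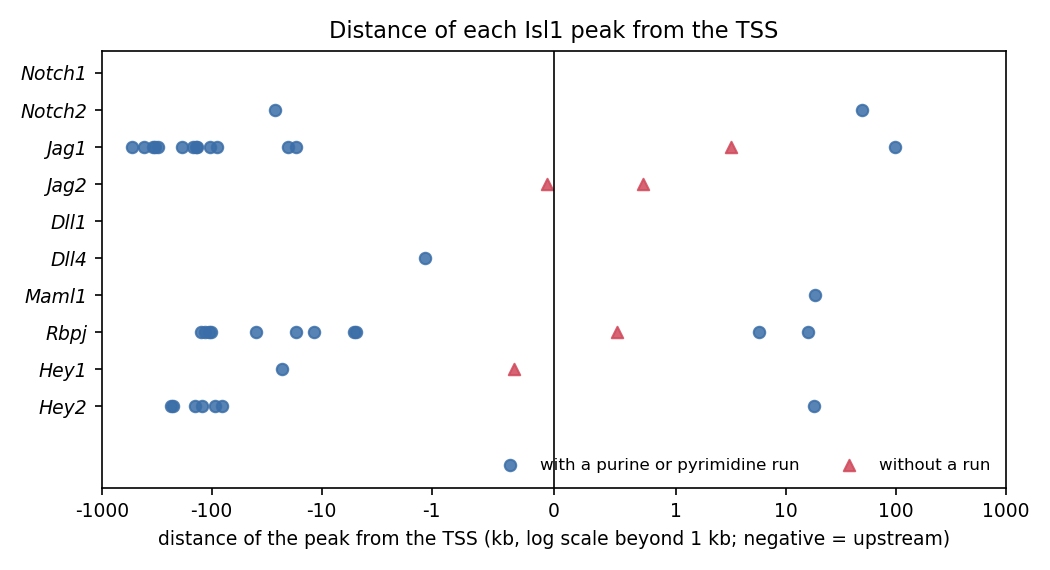
Distance of each Isl1 peak from the TSS in kb (horizontal axis, linear up to 1 kb and logarithmic beyond, negative upstream) for each gene (vertical axis); circles are peaks with such a run (25 bases or more of purines or of pyrimidines) and triangles lack one. The 4 peaks within 1 kb, at Jag2, Rbpj and Hey1, are all triangles, and Jag1 reaches farthest upstream, to 527.7 kb.

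Most of the peaks lay on the upstream side, 33 of 42 (78.6%), against 47.5% of the whole list. The share was 13 of 15 for Jag1, 9 of 12 for Rbpj and 6 of 7 for Hey2. The 9 of Rbpj include the intronic peaks at 4.89 and 11.8 kb, which are upstream of an internal TSS only. The sequence that the closest-TSS rule can assign to these genes was also unequal between the sides. Of that sequence 83.5% was upstream at Jag1, 68.1% at Rbpj and 92.2% at Hey2, and 66.9% over the 10 genes, so the upstream shares of the peaks at Jag1 and Hey2 were near those of the sequence around them.

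Jag1 and Hey2 had the most distant peaks, with widths over a similar range at all genes. The median distance was 139.5 kb for Jag1, 122.8 kb for Hey2 and 16.6 kb for Rbpj, against 22.7 kb for the 27 peaks of all genes other than Jag1 and 58.8 kb for the list. The median width was 401 bp for Jag1 (295 to 848 bp) and 439 bp for the others (319 to 706 bp), while the list as a whole had a median of 466 bp and ranged from 175 to 3426 bp. Wider than this median were 5 of the 15 Jag1 peaks, 7 of the 12 Rbpj peaks and 18 of all 42. Because peaks of 1 gene are not replicates of a condition, no test was applied to these values.

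The number of peaks a gene receives by the closest-TSS rule depends on how much sequence is closer to it than to any other gene. For Jag1 this was 682.2 kb, more than for 97.4% of 18111 protein-coding genes, and its 15 peaks corresponded to 22.0 per Mb (exact Poisson 95% interval 12.3 to 36.3). The whole list had 18.9 peaks per Mb, at which 12.9 peaks would fall on this stretch, so the number at Jag1 was 1.16 times that value and the interval included the density of the list. Jag1 thus stood at percentile 98.2 of genes by number of peaks but at percentile 71.5 by density. Density percentiles can be too high here. Of the 48295 peaks, 37234 matched protein-coding genes, and sequence near the other peaks still counts toward a protein-coding gene. The 10 Notch pathway genes were listed with 42 of the 43 peaks closest to them by protein-coding start sites, so they lose little in this way.

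Rbpj had more peaks per Mb than Jag1, with intervals that overlap. Its 12 peaks fell on 237.5 kb, 50.5 per Mb (interval 26.1 to 88.3), 2.68 times the density of the list, and the interval lay above 18.9. By density it was at percentile 91.6 of the 18111 genes, where Jag2, with 2 peaks on 24.3 kb, was at 97.1. Among the 4830 genes with at least 100 kb around them, of which the median had 14.6 peaks per Mb, Rbpj was at percentile 97.8 and Jag1 at 71.8. All these density percentiles have the limit given for Jag1. Hey2 had 27.4 per Mb (interval 11.0 to 56.5) and Hey1 9.65 (1.17 to 34.9). These intervals include the density of the list, as do those of Notch2 (15.4 per Mb, 1.87 to 55.7), Dll4 (32.0, 0.811 to 178.4), Maml1 (22.8, 0.578 to 127.2) and Jag2 (82.4, 9.98 to 297.6). For the genes without a listed peak, 3.24 peaks would fall on the 171.6 kb around Dll1 and 1.39 on the 73.8 kb around Notch1 at the density of the list. The counts of 0 listed peaks allow up to 21.5 and 50.0 per Mb. The stretch around Dll1 did hold 1 peak, 114.9 kb from its TSS and listed for Gm5091, so the limit of 21.5 covers only peaks listed for Dll1. A lower density than that of the list was therefore not detectable at either gene. The intervals treat peaks as independent and cover counting error only, and since the genes were taken up with their numbers known, the interval of Rbpj is not a test.

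**Figure D4:**
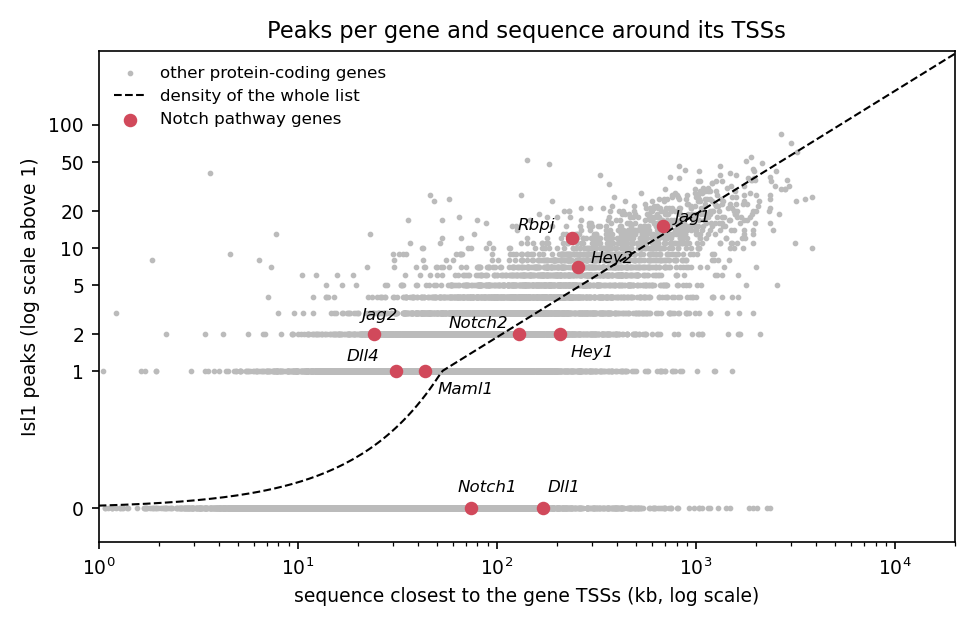
Number of Isl1 peaks (vertical axis, logarithmic above 1) against the sequence closest to the TSSs of a gene in kb (horizontal axis, logarithmic) for protein-coding genes (gray) and the Notch pathway genes (red); the dashed line is the density of the whole list, 18.9 peaks per Mb. Jag1 (682.2 kb, 15 peaks) lies near the line and Rbpj (237.5 kb, 12 peaks) above it. The line counts peaks listed for any gene, noncoding ones included, and each point only those listed for the gene.

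Other genes shared the arrangement of Jag1. Besides Jag1, 48 protein-coding genes had exactly 15 peaks, with median distances from 31.0 to 708.3 kb. Of these, 31 had a larger median distance than Jag1 and 12 had at least as many upstream peaks. The nearest to Jag1 by median distance, on a log10 scale over these genes, were Cobl at 135.3 kb, Mpdz at 144.6 kb, Noct at 145.1 kb, Pde4d at 145.4 kb and Gria1 at 126.0 kb, with 13, 11, 15, 6 and 10 upstream peaks.

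The sequence under the 42 peaks was compared with that of the whole list. A purine or pyrimidine run of 25 bases or more within the 200 bp around the midpoint was present in 37 of 42 peaks (88.1%), in 14 of 15 at Jag1 and in 23 of 27 at the other genes, against 94.1% of the list. So a run was the rule at these genes, as in the list. On the forward strand 20 runs were of purines and 17 of pyrimidines. The median longest run was 71.5 bases in the 42 peaks and 92 in the list. Repeats of CT or GA of at least 4 units occurred in 25 peaks (59.5%, list 56.1%). In the flanks, 84 stretches of 200 bp centered 1 kb from each midpoint, no run was found and the longest measured 20 bases, while 3.93% of the flanks of the list held one.

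The 5 peaks without a run were the promoter peak of Hey1, both Jag2 peaks, the Rbpj peak at 516 bp and the intronic Jag1 peak. The first 4 of them were also the only 4 peaks within 1 kb of a TSS, and their GC content was 82.0 to 86.5%. In the list, 49.3% of the peaks within 1 kb had no run, with a median GC content of 82.5%, against 4.77% of the peaks farther away. Of the 38 peaks of Notch pathway genes beyond 1 kb, 37 held a run. The exception was the CA repeat at Jag1. A CA or TG repeat of at least 10 units was present in 8 of the 42 peaks, 3 at Jag1, 2 at Notch2, 2 at Hey2 and 1 at Rbpj, against 12.2% of the list and 20.6% of its peaks without a run. Each of the 42 peaks therefore held a purine or pyrimidine run, a CA repeat or a GC content above 80%. These kinds were put together after the values were seen, and in the list a run alone was present in 94.1%, so this is no trait of these genes. What part such sequence has in the calling of these peaks was not tested.

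**Figure D5:**
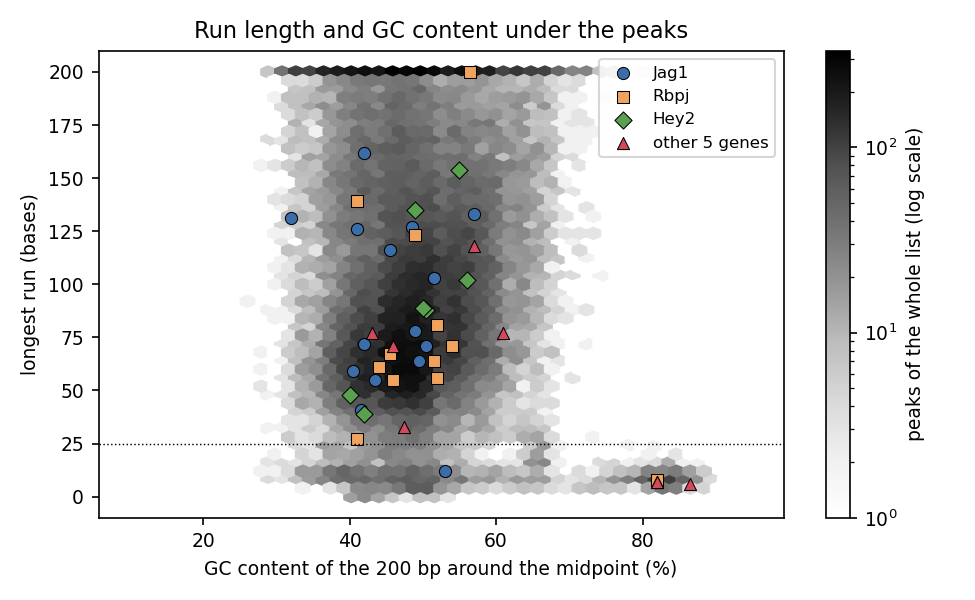
Longest purine or pyrimidine run in bases (vertical axis) against GC content in percent (horizontal axis) within the 200 bp around the midpoint, for peaks of the whole list (gray shading, logarithmic number) and the 42 peaks of Notch pathway genes (symbols by gene); the dotted line marks 25 bases. The peaks at Jag2, the Rbpj peak at 516 bp and the Hey1 promoter peak lie at a GC content of 82.0 to 86.5% under the line, and the intronic Jag1 peak lies under it at 53.0%.

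Short motifs were searched on both strands within the same 200 bp. TAAT, the core bound by homeodomain proteins such as Isl1, was present in 20 of 42 peaks (47.6%), against 35.3% of the list. It was more frequent beside the peaks than under them, in 61 of 84 flanks (72.6%) and 73.4% of those of the list. TGGGAA, the core of the Rbpj recognition site, was present in 5 of 42 peaks (11.9%), against 6.92% of the list. It was also present in 20 of 84 flanks (23.8%), against 17.3% of those of the list. The 5 peaks were those of Dll4 and of the Hey1 promoter, the downstream Jag2 peak and 2 upstream Jag1 peaks, at 89.9 and 147.0 kb. Since TAAT cannot lie in a run and part of TGGGAA can, the frequencies of both also depend on the runs, and a match describes the letters only.

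The rest of the pathway was read from a list of 53 further genes. Of these, 26 (49.1%) had at least 1 peak, near the 50.6% of all protein-coding genes, and 15 of the 26 had one within 10 kb, against 49.4% of all genes with a peak. Their 68 peaks fell on 4803 kb of closest sequence, 14.2 per Mb, against 18.9 in the list and 22.6 for the 10 genes together. The 18.9 counts peaks listed for any gene, noncoding ones included, whereas the 14.2 counts only peaks listed for these genes. Of the 48295 peaks, 37234 matched protein-coding genes, so 14.2 and 18.9 are not like for like. The median of protein-coding genes with at least 100 kb around them was 14.6 per Mb, and the difference from the list was not tested. Of the 11 nuclear cofactors 8 had a peak, with 22 peaks on 1386 kb (15.9 per Mb), 7 of them on the 441.5 kb of the Mastermind-like gene Maml3. Of the 9 modulators, which turn over or route the receptor, 6 had a peak, with Fbxw7, a ubiquitin ligase subunit for the intracellular domain, at 4. Of the 7 other receptors and ligands 3 had a peak, with Cntn1, a contactin, at 6, and of the 8 other bHLH effectors only Hes1 (5 peaks) and Helt (3 peaks) did. Of the 4 ligand ubiquitin ligases Neurl1a and Neurl1b had 4 peaks each, of the 9 genes of proteolysis 3 had a peak, with the receptor protease Adam10 at 3, and of the 5 glycosyltransferases Lfng and Mfng had 2 each. The split by distance recurred in these genes: 6 of their 7 peaks within 1 kb had no run. Among them were peaks at Crebbp, Spen and Neurl1a, with a GC content of 86.5%, 83.0% and 82.5%.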

How the data were processed

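The deposited file was 1 list of peaks with mm9 positions and the distance to the closest TSS, both in bp, and a gene symbol. Per the labels and the study's methods, the authors used Bowtie2 for alignment, Picard 1.136 against duplicates, MACS for peak calling, a filter on ENCODE blacklisted regions and HOMER for the closest TSS. Reads placed in repeats and the fixed choice of the closest TSS can both change which gene gets a peak. The depth of the library is unknown.

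Peaks were taken by gene symbol. Every gene was named, with all peaks of genes with up to 5 peaks, and otherwise the closest, farthest, widest, median and those without a run; further peaks and genes named for a feature were chosen after their values were seen. The genes, the list of further pathway genes and the run of purines or pyrimidines were chosen with earlier results of these data known. Sequence was read from NCBIM37 (mm9) within 100 bp of the midpoint, annotation from GENCODE vM1, and protein-coding genes by accession from RefSeq (GRCm38.p6, names only): 10646 of 12972 accessions matched, to 10644 genes. The sequence closest to a gene was measured between start sites of protein-coding genes over 2558.5 Mb of known bases. No statistical test was planned or made. The search was tested on simulated data, in which 1000 of 1000 planted runs were found. Alternatives were the width of peaks, annotation, distance limits and run definition. Expression values were not analysed here, and some items are not reported here. Computation used pandas 2.3.3 and numpy 2.4.6 under Python 3.11.15, intervals scipy 1.17.1 and plots matplotlib 3.10.9.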

Additional observations from a re-analysis of the deposited data

How the results depend on the processing

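Of 25 alternative values, 14 stayed within 1.5 times the reported one or within its interval and 11 moved. With peaks wider than the median of the list, 18 peaks remained, 5 of them at Jag1 (7.33 per Mb). Within 100 kb of the TSS, 24 peaks were left, 5 of them at Jag1, a share of 20.8% against 35.7% in all. The exact binomial 95% interval of the latter, 21.6 to 52.0%, treats peaks as independent, though peaks of 1 gene are not replicates. The near peaks are also part of the whole, so this interval does not test a shift of the share. Without a run, 5 peaks at 4 genes were left, 1 of them at Jag1 (20.0%). With start sites of any annotated gene, noncoding ones included, the sequence closest to Jag1 was shorter and its 15 listed peaks came to 70.3 per Mb. This divides peaks by sequence of another rule; with both taken from any gene, a setting chosen after seeing the data, 4 peaks and 18.7 per Mb were obtained. With the closest GENCODE protein-coding TSS, 9 genes held 43 peaks, as Dll1 gained 1 at 114.9 kb, and Jag1 kept 15. Limits of 5 and 20 kb gave 5 and 7 genes with a near peak, and a run of at least 40 bases was held by 34 peaks. No paired analysis was possible because 1 peak list was analysed and the result comes from no test. Without read numbers, weak and strong peaks cannot be told apart, and absence from the list does not show absence of binding.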

Other observations

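A GC-rich peak without a run was also found at Hes1, a bHLH repressor that is a classical Notch target. Its closest peak lay 5.07 kb downstream of the TSS and had a GC content of 80.5% and a longest run of 8 bases. Among the 11 run-free peaks of the 53 further pathway genes, those upstream of Dtx1 at 13.2 kb and of Nrarp at 19.6 kb held CA or TG repeats of 21 and 14 units, as the intronic Jag1 peak did with 40. These peaks were chosen after their values were seen, and the counts carry no test.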
